A study of Mus musculus with 12 samples.

Results

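The genes that copy DNA in S phase were followed in isolated mouse glomeruli, the filtration units of the kidney. The set holds 47 genes chosen by name for a known part in licensing origins, unwinding and copying DNA, supplying deoxynucleotides or restoring chromatin. Of these, 45 were among the 14096 genes listed in the deposited data, and Gins1 and Ccne1 were not. Being listed was itself a measured condition, since every listed gene reached a normalised read count of at least 100 in some library. The listed member nearest to that limit was Ccne2, the cyclin E2 gene, with a highest value of 107, followed by Cdc6 with 120.5 and Orc1 with 130.0. The theme was also picked with higher values of cell division genes in the diabetic mice already known, so the values for diabetes, with vehicle and with ATG, are given as a description. The 12 libraries came from male eNOS−/− mice, which all lack endothelial nitric oxide synthase, and no library of mice with the intact gene was used. Streptozotocin (STZ, 50 mg/kg daily over 5 days, begun when the mice were 8 weeks old) was used to make mice diabetic, and nondiabetic controls received citrate buffer. From 10 weeks after induction, arctigenin (ATG), a plant lignan, at 40 mg/kg or its vehicle of 5% DMSO was given by gavage every day for 8 weeks, and the mice were killed 18 weeks after induction. This gave 4 groups of 3 mice, which are called Con_DMSO (nondiabetic, vehicle), Con_ATG (nondiabetic, ATG), DM_DMSO (diabetic, vehicle) and DM_ATG (diabetic, ATG).

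Replication is prepared in G1 phase, when the origin recognition complex, Cdc6 and Cdt1 load the ring-shaped MCM helicase onto DNA. In S phase, Cdc45 and the GINS complex switch the helicase on, primase and the polymerases alpha, delta and epsilon copy the strands along the sliding clamp PCNA, and CAF-1, Dnmt1 and Uhrf1 rebuild chromatin and DNA methylation behind the fork. Many of these genes are targets of E2F transcription factors and are low in resting cells. Cells of the adult glomerulus seldom divide, and podocytes are regarded as having left the cell cycle.

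The libraries held 23.6 to 29.8 M reads (M, mega) on listed genes, and a listed member had from 45 to 3133 reads in any one mouse. Values are log2 of the normalised read count, without division by gene length. Podocyte markers, the defining genes of the glomerulus, took between 1.03% and 3.69% of the normalised reads of a library. Proximal tubule markers took between 0.137% and 1.73%. Reads on Nos3, the disrupted gene, were counted in every mouse (846 to 2703), and they do not show which exons they came from. The first part of the library labels differs between the groups, so a preparation batch cannot be told apart from the group. Since these are bulk samples, fewer cells of a type and less RNA per cell cannot be told apart either.

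In vehicle-treated mice, every one of the 45 members had a higher mean in the diabetic than in the nondiabetic glomeruli, with log2 differences from 0.0058 (Pold2, a polymerase delta subunit) to 1.12 (Uhrf1, which guides maintenance methylation) and a median of 0.37. Over all listed genes, 51.2% were above 0 and the median was 0.0075. The log2 difference passed the test (limma, adjusted p under 0.05 over all listed genes) for 25 members, all of them higher and none lower, where 10.2% of all genes passed as higher and 8.63% as lower. In 34 members, each of the 3 DM_DMSO mice was above each of the 3 Con_DMSO mice, as were 23% of all genes. The median deviation of the members from their Con_DMSO mean was 0.38, 0.43 and 0.36 in the 3 DM_DMSO mice, against −0.0042, −0.0066 and 0.016 in the Con_DMSO mice themselves. These medians stood higher in each of the 3 diabetic mice. The median deviation was 0.31, 0.34 and 0.38 in the DM_ATG mice and −0.035, −0.038 and −0.043 in the Con_ATG mice. Without Con_DMSO mouse 1, 12 members passed in vehicle-treated mice (3.37% of all genes as higher), and without Con_DMSO mouse 2 or DM_DMSO mouse 1, 16 passed (6.05% and 3.94% of all genes), where the median log2 difference stayed between 0.37 and 0.38.

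**Figure D1:**
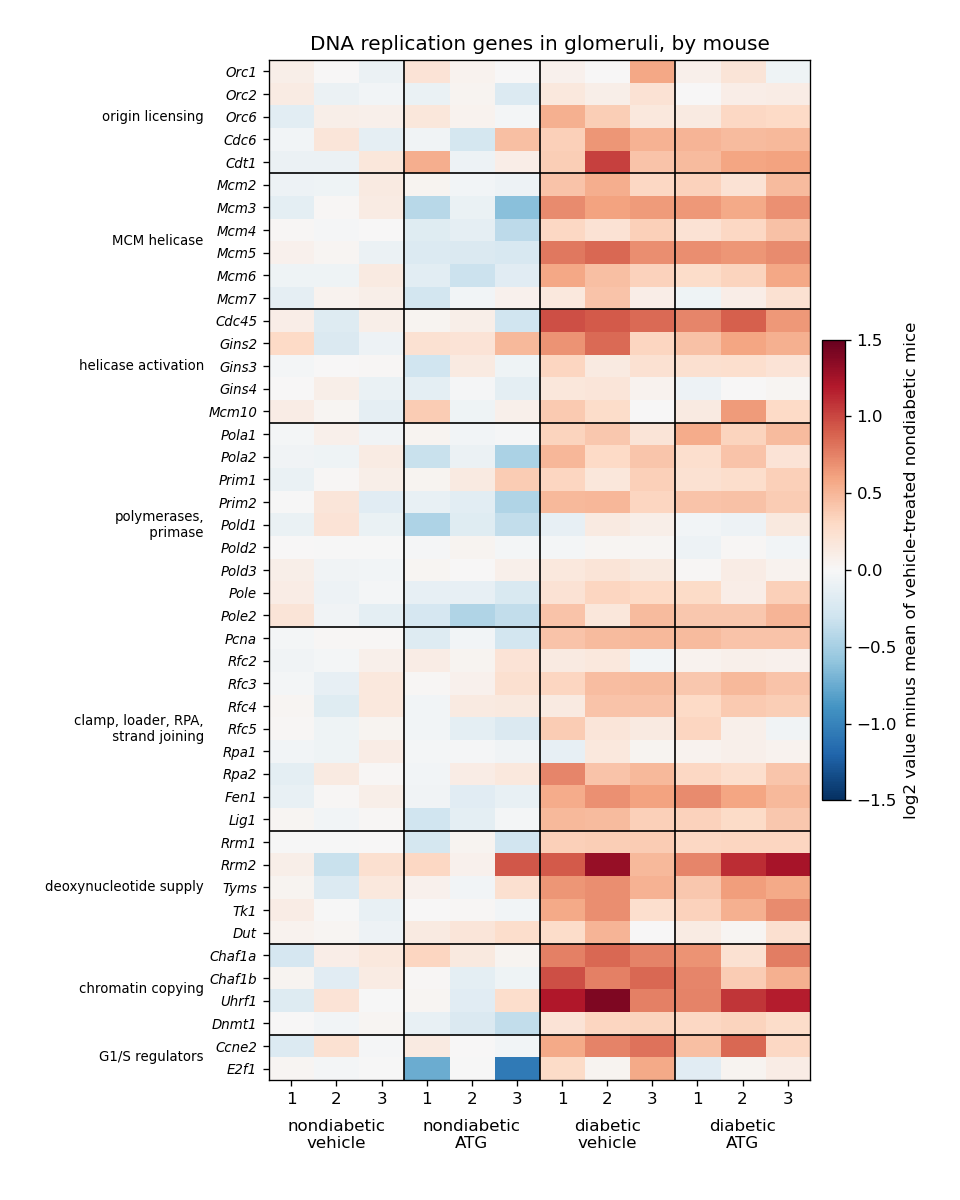
Each cell is the log2 value of 1 member in 1 mouse minus the mean of the 3 Con_DMSO mice, on the scale as deposited, with members in rows by role and mice in columns by group. The 6 diabetic mice on the right are red in most rows (40 to 45 of 45 members above 0 in each), while the 3 Con_ATG mice have 17 to 20 members above 0.

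Diabetes was also compared in the ATG-treated mice, which are other mice, although their values were likewise known when the members were chosen. The mean of 41 members was higher in DM_ATG than in Con_ATG, against 56% of all genes, a direction that turned when libraries were centred on glomerular markers, with log2 differences from −0.058 to 1.02 and a median of 0.41 beside 0.053 over all listed genes. As higher, 25 members passed and none as lower (limma), where the background was 25.9% higher and 20.8% lower. In 28 members the 3 DM_ATG mice were all above the 3 Con_ATG mice, compared with 30.5% of all genes. The members that passed as higher in both sets of mice numbered 21, which is 84% of those that passed with vehicle, 84% of those that passed with ATG and 46.7% of the members, against 8.58% of all genes. They were Mcm2, Mcm3, Mcm4, Mcm5, Mcm6, Cdc45, Pola1, Pola2, Prim2, Pole, Pcna, Rfc3, Fen1, Lig1, Rrm1, Tyms, Tk1, Chaf1b, Uhrf1, Dnmt1 and Ccne2. Gins2, Rpa2, Rrm2 and Chaf1a passed with vehicle alone, and Gins3, Pold1, Pole2 and E2f1 with ATG alone, but no member passed the test of the difference between the comparisons given further on. The remaining 16 passed in neither. The 21 and both counts of 25 include Ccne2, which was listed only through its diabetic groups. The 25 with ATG also include Pole2, which reached 100 normalised reads in every group but Con_ATG, its low group in that comparison.

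Markers of other cells were counted in the same way, where 10.2% of all genes passed as higher and 8.63% as lower with vehicle, and 25.9% and 20.8% with ATG. Of 20 proximal tubule markers, 15 were lower in DM_DMSO than in Con_DMSO (limma, median log2 difference −1.52) and 19 were lower in DM_ATG than in Con_ATG. Their summed level was 157589 to 263987 normalised reads in Con_DMSO, 298296 to 521843 in Con_ATG, 40903 to 95588 in DM_DMSO and 59323 to 113980 in DM_ATG. Of 15 distal nephron and collecting duct markers, 6 were lower with vehicle (median −0.89) and 13 with ATG (median −1.30), at sums of 327044 to 343675 in Con_DMSO, 336526 to 718729 in Con_ATG, 79326 to 231952 in DM_DMSO and 156765 to 179435 in DM_ATG. Of 20 macrophage and dendritic cell markers, 4 and 7 were higher in the vehicle and ATG comparison, with sums of 11934 to 17518, 9153 to 12118, 15179 to 22430 and 10808 to 18433 in the same order of groups. Glomerular endothelial markers were higher for 6 and 15 of 15, with median log2 differences of 0.42 and 1.00. Podocyte markers were higher for 0 and 4 of 15 (medians 0.15 and 0.62). Mesangial and mural markers were higher for 2 (with 2 lower) and 9 of 14 (medians −0.27 and 0.72). In ATG-treated mice these medians lay above the members' 0.41, and with vehicle only the endothelial one lay above their 0.37. Of 15 lymphocyte and neutrophil markers, 6 were listed, and the T and B cell markers Cd3e, Cd3d, Cd4, Cd8a, Cd79a and Ms4a1 were not. Of 7 parietal epithelial markers, 1 was higher with vehicle (Akap12), and 2 were higher and 1 lower with ATG. Of 7 listed erythroid markers, 3 were higher with vehicle (median 1.60), and 2 were higher and 1 lower with ATG (median 1.04). Those higher with vehicle include the haemoglobin genes Hba-a1 (1.65, standard error 0.45) and Hba-a2 (1.60, standard error 0.47). Both had few reads, 16 to 152 for Hba-a1 and 19 to 165 for Hba-a2. The summed erythroid level was 4957 to 6103 normalised reads in Con_DMSO, 5607 to 9381 in Con_ATG, 4459 to 5481 in DM_DMSO and 4784 to 4833 in DM_ATG, mostly from Tfrc (1224 to 6241 reads) and Slc25a37 (976 to 2074 reads), so that it did not follow the median of the list. No listed marker of these lists was at 0. With tubule marker level as a covariate, the members' median log2 difference was 0.43 in vehicle-treated and 0.50 in ATG-treated mice, with a median standard error of 0.18 and 0.22 in place of 0.11, and 9 and 1 members passed, where 2.44% and 0.837% of all genes passed as higher. With the macrophage markers as a covariate, the medians were 0.40 and 0.37 and 13 and 24 members passed, beside 3.99% and 22.9% of all genes. Centring each library on its podocyte, glomerular endothelial, and mesangial and mural markers, an alternative chosen after the data had been seen, left a median of 0.30 and 1 passing member (Cdc45) in vehicle-treated mice, with 1.36% of all genes passing as higher. In ATG-treated mice the same centring turned the members' median to −0.37 and that of all genes to −0.73. With it, 15 members and 76.3% of all genes passed as lower. Centring shifts every log2 difference alike, by −0.78 in ATG-treated and −0.068 in vehicle-treated mice, here and in the lists given further on. The distance of 0.36 between the members' median and that of all genes therefore cannot change under centring, whatever the data. Beyond these values, the part of cell content in the result was not tested.

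The bases in front of the members' transcription starts were searched for motifs of cell cycle promoters. Windows of 250 bases before the start were found in RefSeq (GRCm38.p6, the assembly behind mm10) for 38 of the 45 listed members, 47 windows in all. On either strand, 10 of the 38 genes held at least 1 of the E2F-type motifs TTTCCCGC, TTTGGCGC and TTTCGCGC (26.3%), compared with 1.78% of 27025 genes in the whole table. The table is wider than the 14096 listed genes used as background elsewhere, and the share among those was not counted. The NF-Y motif CCAAT was in 55.3% of the members' windows and 33.9% of all 32851 windows, and the CHR-type motif TTTGAA in 12.8% and 16.0%. An E2F-type motif was held by 6 of 20 genes that passed for diabetes in vehicle-treated mice and by 4 of 18 that did not. Below are the windows of members with the lowest p (Mcm5, Chaf1b) and the highest p (Pold1, Pold2) in that comparison, as far as they lie outside annotated exons, with motifs in capitals. Pcna and Rpa1 also met this choice and are not shown, since their windows lie mostly in exons of theirs or of a neighbour.
Mcm5, chr8:75109259-75109508, plus strand: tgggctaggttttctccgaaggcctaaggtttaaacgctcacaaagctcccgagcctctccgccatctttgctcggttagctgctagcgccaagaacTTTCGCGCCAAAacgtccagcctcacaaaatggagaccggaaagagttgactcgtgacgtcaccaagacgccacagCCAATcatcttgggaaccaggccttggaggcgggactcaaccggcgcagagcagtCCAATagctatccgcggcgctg
Chaf1b, chr16:93883651-93883900, plus strand: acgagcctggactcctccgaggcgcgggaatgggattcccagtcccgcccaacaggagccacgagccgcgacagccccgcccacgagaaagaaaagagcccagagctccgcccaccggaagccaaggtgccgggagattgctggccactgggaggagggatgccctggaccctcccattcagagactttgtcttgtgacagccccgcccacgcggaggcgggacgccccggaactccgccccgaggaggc
Pold1, chr7:44548850-44549065, minus strand: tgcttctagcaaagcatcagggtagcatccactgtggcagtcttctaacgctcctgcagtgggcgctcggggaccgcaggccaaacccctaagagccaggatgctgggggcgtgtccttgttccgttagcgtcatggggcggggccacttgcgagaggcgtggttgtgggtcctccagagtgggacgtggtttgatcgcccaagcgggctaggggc
Pold2, chr11:5878293-5878506, minus strand: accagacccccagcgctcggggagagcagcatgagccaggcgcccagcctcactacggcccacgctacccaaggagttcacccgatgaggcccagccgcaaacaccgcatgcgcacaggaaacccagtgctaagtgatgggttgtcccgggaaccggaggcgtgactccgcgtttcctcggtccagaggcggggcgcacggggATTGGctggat
In the Mcm5 window, an E2F-type motif starts 153 bases before the start site and overlaps another on the reverse strand, and CCAAT stands 77 and 22 bases before it. The Pold2 window holds CCAAT on the reverse strand, 47 bases before the start, and the Chaf1b and Pold1 windows hold none of the motifs. A match is a description of letters, not of binding.

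In the paragraphs by role, the counts of genes that passed as higher stand beside 10.2% of all genes with vehicle and 25.9% with ATG, and with so few genes in a role they are descriptions. None of the 5 origin licensing genes passed in either diabetes comparison, which at those shares does not set the role apart, and the median log2 differences were 0.35 with vehicle and 0.18 with ATG. Orc6, a subunit of the origin recognition complex, had a log2 difference of 0.35 (standard error 0.11, limma adjusted p = 0.0505) in vehicle-treated mice, just outside the threshold, with all 3 DM_DMSO mice above all 3 Con_DMSO mice. Cdt1, which brings the MCM helicase to origins, had one of 0.61 (standard error 0.20, limma adjusted p = 0.0534), where DM_DMSO mouse 2 was the highest of all 12 mice. Cdc6, the loading ATPase, had 0.51 (standard error 0.18) with vehicle and 0.45 with ATG, and in both comparisons the diabetic mice were all above the nondiabetic ones. Orc1, the largest subunit, and Orc2 overlapped between diabetic and nondiabetic mice in both comparisons. Orc1, Cdc6, Ccne2 and Pole2 reached 100 normalised reads in some groups only, so these 4 were listed through the groups where they were high.

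Of Mcm2 to Mcm7, which encode the 6 subunits of the ring, 5 passed as higher in both diabetes comparisons (10.2% of all genes higher with vehicle and 25.9% with ATG), and Mcm7 passed in neither. Mcm5 had log2 values of 8.48, 8.45 and 8.33 in Con_DMSO, 8.22, 8.20 and 8.18 in Con_ATG, 9.21, 9.28 and 9.11 in DM_DMSO and 9.11, 9.08 and 9.12 in DM_ATG. All 6 diabetic mice were at least 0.60 above all 6 nondiabetic mice. The log2 difference was 0.78 (standard error 0.074, limma adjusted p = 0.000876) with vehicle and 0.91 (standard error 0.074, limma adjusted p = 5.42e-05) with ATG. Mcm3 was at 9.05, 9.22 and 9.32 in Con_DMSO, 8.78, 9.10 and 8.57 in Con_ATG, 9.91, 9.80 and 9.83 in DM_DMSO and 9.85, 9.76 and 9.89 in DM_ATG. Here Con_ATG mice 1 and 3 were below every Con_DMSO mouse, and the difference was 0.65 (standard error 0.12, limma adjusted p = 0.00753) with vehicle and 1.02 (standard error 0.12, limma adjusted p = 0.000244), or 2.02-fold, with ATG. Mcm6 had values of 8.93, 8.94 and 9.13 in Con_DMSO, 8.84, 8.68 and 8.82 in Con_ATG, 9.58, 9.45 and 9.35 in DM_DMSO and 9.27, 9.34 and 9.58 in DM_ATG. Diabetic and nondiabetic mice did not overlap, with differences of 0.46 (standard error 0.10, limma adjusted p = 0.0137) and 0.61 (standard error 0.10, limma adjusted p = 0.00114). Mcm2 had values of 9.28, 9.29 and 9.49 in Con_DMSO, 9.39, 9.31 and 9.27 in Con_ATG, 9.78, 9.89 and 9.67 in DM_DMSO and 9.70, 9.57 and 9.82 in DM_ATG. Its lowest diabetic mouse, in DM_ATG, lay above its highest nondiabetic mouse, and the differences were 0.43 (standard error 0.092, limma adjusted p = 0.0125) and 0.37 (standard error 0.092, limma adjusted p = 0.00766). Mcm4, the subunit with the smallest difference among those that passed with vehicle, was at 9.24, 9.21 and 9.23 in Con_DMSO, 9.04, 9.09 and 8.83 in Con_ATG, 9.54, 9.44 and 9.58 in DM_DMSO and 9.45, 9.54 and 9.67 in DM_ATG. It differed by 0.29 (standard error 0.087, limma adjusted p = 0.0387) with vehicle and by 0.56 (standard error 0.087, limma adjusted p = 0.000768) with ATG. Mcm7, whose gene also hosts a cluster of miRNAs, had differences of 0.23 (standard error 0.12, limma adjusted p = 0.206) and 0.17 (standard error 0.12, limma adjusted p = 0.260).

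Among the genes that activate the helicase, Cdc45 and Gins2 passed with vehicle, and Cdc45 and Gins3 with ATG, of 5 listed (10.2% of all genes higher with vehicle and 25.9% with ATG). Cdc45, which joins the MCM ring to form the moving helicase, was at 6.85, 6.57 and 6.85 in Con_DMSO, 6.80, 6.84 and 6.46 in Con_ATG, 7.73, 7.68 and 7.61 in DM_DMSO and 7.49, 7.65 and 7.41 in DM_ATG. The diabetic mice were all above the nondiabetic mice by at least 0.55 log2 units, and the differences were 0.91 (standard error 0.14, limma adjusted p = 0.00375) with vehicle, a fold of 1.88, and 0.82 (standard error 0.14, limma adjusted p = 0.00114) with ATG. Gins3, a GINS subunit, was at 9.36, 9.40 and 9.42 in Con_DMSO, 9.10, 9.52 and 9.33 in Con_ATG, 9.72, 9.53 and 9.63 in DM_DMSO and 9.63, 9.64 and 9.60 in DM_ATG. The difference was 0.31 (standard error 0.10, limma adjusted p = 0.0252) with ATG and 0.23 (standard error 0.10, limma adjusted p = 0.120) with vehicle, with no overlap in either comparison. Gins2 had a difference of 0.62 (standard error 0.17, limma adjusted p = 0.0308) with vehicle and 0.21 (standard error 0.17, limma adjusted p = 0.332) with ATG. Gins4 was at 9.16, 9.23 and 9.05 in Con_DMSO, at 9.14 and 9.01 in Con_ATG mice 2 and 3 with mouse 1 just below them, at 9.32, 9.33 and 9.20 in DM_DMSO and at 9.07, 9.15 and 9.18 in DM_ATG. These values overlapped between Con_DMSO and DM_DMSO mice and between Con_ATG and DM_ATG mice, and neither difference passed. Mcm10, a scaffold that binds the helicase, overlapped in both comparisons as well (0.23 and 0.22, standard error 0.17).

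Of 9 polymerase and primase genes, the polymerase alpha subunits Pola1 and Pola2, the large primase subunit Prim2 and the catalytic epsilon subunit Pole passed in both comparisons (10.2% of all genes higher with vehicle and 25.9% with ATG). The delta subunits Pold2 and Pold3 and the other primase subunit, Prim1, passed in neither. Prim1 differed by 0.28 (standard error 0.11, limma adjusted p = 0.0879) with vehicle and by 0.096 (standard error 0.11, limma adjusted p = 0.489) with ATG. Pola1 was at 8.38, 8.49 and 8.36 in Con_DMSO, 8.45, 8.37 and 8.40 in Con_ATG, 8.74, 8.81 and 8.60 in DM_DMSO and 8.97, 8.75 and 8.89 in DM_ATG. Its diabetic mice were all higher, by 0.31 (standard error 0.087, limma adjusted p = 0.0338) and 0.46 (standard error 0.087, limma adjusted p = 0.00207). Pola2 was at 8.90, 8.89 and 9.08 in Con_DMSO, 8.63, 8.87 and 8.49 in Con_ATG, 9.45, 9.26 and 9.37 in DM_DMSO and 9.21, 9.39 and 9.16 in DM_ATG. The differences were 0.40 (standard error 0.11, limma adjusted p = 0.0287) and 0.60 (standard error 0.11, limma adjusted p = 0.00180), the second against Con_ATG mice that were all below the Con_DMSO mice. Prim2 had values of 7.36, 7.55 and 7.20 in Con_DMSO, 7.26, 7.22 and 6.92 in Con_ATG, 7.85, 7.87 and 7.69 in DM_DMSO and 7.80, 7.81 and 7.75 in DM_ATG. It differed by 0.44 (standard error 0.13, limma adjusted p = 0.0357) and 0.65 (standard error 0.13, limma adjusted p = 0.00232) without overlap. Pole was at 8.86, 8.68 and 8.72 in Con_DMSO, 8.62, 8.62 and 8.52 in Con_ATG, 8.97, 9.07 and 9.05 in DM_DMSO and 9.04, 8.86 and 9.11 in DM_ATG. The vehicle difference of 0.28 (standard error 0.087, limma adjusted p = 0.0459) lay just inside the threshold, and the ATG difference was 0.41 (standard error 0.087, limma adjusted p = 0.00358). Pole2, the second epsilon subunit, was at 6.85, 6.60 and 6.51 in Con_DMSO, 6.40, 6.21 and 6.28 in Con_ATG, 7.09, 6.83 and 7.13 in DM_DMSO and 7.05, 7.06 and 7.16 in DM_ATG. The lowest DM_DMSO mouse was below the highest Con_DMSO mouse (0.36, standard error 0.13, limma adjusted p = 0.0812), whereas the DM_ATG mice were all above the Con_ATG mice (0.80, standard error 0.13, limma adjusted p = 0.00121). Pold1, the catalytic delta subunit, was at 9.13, 9.43 and 9.13 in Con_DMSO, 8.77, 9.05 and 8.87 in Con_ATG, 9.11, 9.36 and 9.32 in DM_DMSO and 9.19, 9.16 and 9.38 in DM_ATG. In vehicle-treated mice it differed by 0.034 (standard error 0.12, limma adjusted p = 0.863), a sign that turned under several alternatives, and in ATG-treated mice by 0.35 (standard error 0.12, limma adjusted p = 0.0300), where the Con_ATG mice were the low ones. Pold2 stayed between 9.38 and 9.50 in all 12 mice, with differences of 0.0058 and −0.032 (standard error 0.058), so that a change like that of Mcm5 would have been far outside its error.

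Of 9 genes for the clamp, its loader, RPA and strand joining, 5 passed with vehicle and 4 with ATG (10.2% of all genes higher with vehicle and 25.9% with ATG). The clamp gene Pcna passed in both comparisons, as did Fen1 and Lig1. Pcna, the sliding clamp, was at 11.10, 11.14 and 11.14 in Con_DMSO, 10.93, 11.09 and 10.85 in Con_ATG, 11.56, 11.60 and 11.61 in DM_DMSO and 11.60, 11.55 and 11.55 in DM_ATG. It was the most abundant member per length, and its diabetic mice lay within 0.064 of each other. The differences were 0.46 (standard error 0.063, limma adjusted p = 0.00269) and 0.61 (standard error 0.063, limma adjusted p = 0.000143). Fen1, the flap endonuclease that trims Okazaki fragments, was at 7.66, 7.79 and 7.86 in Con_DMSO, 7.71, 7.60 and 7.66 in Con_ATG, 8.32, 8.46 and 8.38 in DM_DMSO and 8.48, 8.37 and 8.25 in DM_ATG. Its differences, without overlap, were 0.61 (standard error 0.094, limma adjusted p = 0.00417) and 0.71 (standard error 0.094, limma adjusted p = 0.000399), folds of 1.53 and 1.63. Lig1, the ligase that seals them, was at 8.66, 8.59 and 8.65 in Con_DMSO, 8.34, 8.49 and 8.60 in Con_ATG, 9.12, 9.10 and 8.99 in DM_DMSO and 8.98, 8.93 and 9.04 in DM_ATG. The diabetic mice were all higher, by 0.44 (standard error 0.084, limma adjusted p = 0.00824) and 0.50 (standard error 0.084, limma adjusted p = 0.00113). Of the clamp loader genes, Rfc3 passed in both comparisons, and Rfc2, Rfc4 and Rfc5 in neither. Rfc3 was at 7.79, 7.69 and 7.97 in Con_DMSO, 7.83, 7.87 and 8.05 in Con_ATG, 8.14, 8.27 and 8.29 in DM_DMSO and 8.22, 8.30 and 8.25 in DM_ATG, with differences of 0.42 (standard error 0.10, limma adjusted p = 0.0195) and 0.33 (standard error 0.10, limma adjusted p = 0.0204). Of the subunits of RPA, which covers single-stranded DNA, Rpa2 passed with vehicle and Rpa1 in neither comparison. Rpa2 was at 8.09, 8.37 and 8.26 in Con_DMSO, 8.20, 8.36 and 8.40 in Con_ATG, 8.98, 8.67 and 8.73 in DM_DMSO and 8.55, 8.49 and 8.66 in DM_ATG. It rose by 0.55 (standard error 0.11, limma adjusted p = 0.0101) with vehicle and differed by 0.25 (standard error 0.11, limma adjusted p = 0.0830) with ATG. Rpa1 lay between 10.79 and 11.07 in all mice and differed by 0.023 (standard error 0.074, limma adjusted p = 0.853) with vehicle.

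Of the 5 genes for deoxynucleotide supply, 4 passed with vehicle and 3 with ATG (10.2% of all genes higher with vehicle and 25.9% with ATG). Tyms, thymidylate synthase, was at 8.00, 7.75 and 8.11 in Con_DMSO, 8.02, 7.91 and 8.19 in Con_ATG, 8.62, 8.65 and 8.48 in DM_DMSO and 8.35, 8.58 and 8.52 in DM_ATG. Diabetic mice were all above nondiabetic mice, by 0.63 (standard error 0.12, limma adjusted p = 0.00779) and 0.45 (standard error 0.12, limma adjusted p = 0.0105). Tk1, the thymidine kinase of dividing cells, was at 7.39, 7.26 and 7.16 in Con_DMSO, 7.28, 7.29 and 7.23 in Con_ATG, 7.84, 7.96 and 7.53 in DM_DMSO and 7.62, 7.81 and 7.98 in DM_ATG. It differed by 0.51 (standard error 0.14, limma adjusted p = 0.0269) and 0.54 (standard error 0.14, limma adjusted p = 0.00864). Rrm1, the large subunit of ribonucleotide reductase, was at 10.00, 10.00 and 10.01 in Con_DMSO, 9.74, 10.04 and 9.72 in Con_ATG, 10.36, 10.38 and 10.39 in DM_DMSO and 10.32, 10.32 and 10.33 in DM_ATG. The 3 DM_DMSO mice spanned 0.029 log2 units and the 3 DM_ATG mice 0.012, and the differences were 0.37 (standard error 0.079, limma adjusted p = 0.0126) and 0.49 (standard error 0.079, limma adjusted p = 0.00103). Rrm2, the small subunit made in S phase, varied far more: it ran from 7.76 to 8.34 in Con_DMSO, 8.17 to 9.03 in Con_ATG, 8.58 to 9.40 in DM_DMSO and 8.83 to 9.34 in DM_ATG. Its difference passed with vehicle (0.90, standard error 0.26, limma adjusted p = 0.0358) and not with ATG (0.59, standard error 0.26, limma adjusted p = 0.0838). Dut, the dUTPase, overlapped in both comparisons and had the lowest difference of the members with ATG.

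All 4 genes that restore chromatin behind the fork passed with vehicle, and 3 of them with ATG (10.2% of all genes higher with vehicle and 25.9% with ATG). Uhrf1 had the largest difference of the 45 members with vehicle. It was at 6.93, 7.34 and 7.12 in Con_DMSO, 7.16, 6.96 and 7.40 in Con_ATG, 8.33, 8.53 and 7.89 in DM_DMSO and 7.87, 8.21 and 8.31 in DM_ATG. The lowest diabetic mouse stood 0.47 above the highest nondiabetic mouse, and the differences were 1.12 (standard error 0.19, limma adjusted p = 0.00576), or 2.17-fold, and 0.96 (standard error 0.19, limma adjusted p = 0.00267). Chaf1b, the p60 subunit of the histone chaperone CAF-1, was at 7.04, 6.82 and 7.12 in Con_DMSO, 7.01, 6.85 and 6.93 in Con_ATG, 7.96, 7.75 and 7.86 in DM_DMSO and 7.72, 7.38 and 7.53 in DM_ATG. Both diabetic groups were above both nondiabetic groups, by 0.86 (standard error 0.13, limma adjusted p = 0.00342) and 0.62 (standard error 0.13, limma adjusted p = 0.00307). Chaf1a, the large CAF-1 subunit, was at 7.15, 7.50 and 7.56 in Con_DMSO, 7.73, 7.55 and 7.45 in Con_ATG, 8.16, 8.26 and 8.14 in DM_DMSO and 8.08, 7.64 and 8.18 in DM_ATG. With ATG, DM_ATG mouse 2 at 7.64 lay among the Con_ATG mice, and the difference of 0.39 (standard error 0.16, limma adjusted p = 0.0632) did not pass, beside 0.78 (standard error 0.16, limma adjusted p = 0.0101) with vehicle. Dnmt1, the maintenance DNA methyltransferase, was at 10.30, 10.26 and 10.33 in Con_DMSO, 10.18, 10.07 and 9.93 in Con_ATG, 10.50, 10.62 and 10.63 in DM_DMSO and 10.60, 10.63 and 10.56 in DM_ATG. It differed by 0.29 (standard error 0.071, limma adjusted p = 0.0202) and 0.54 (standard error 0.071, limma adjusted p = 0.000392).

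Ccne2, a cyclin that drives entry into S phase, was at 5.68, 6.11 and 5.86 in Con_DMSO, 6.01, 5.89 and 5.84 in Con_ATG, 6.45, 6.62 and 6.70 in DM_DMSO and 6.34, 6.74 and 6.19 in DM_ATG. These were among the lowest reads of the set (45 to 104 per mouse), in a gene listed through its diabetic groups, and the differences were 0.71 (standard error 0.18, limma adjusted p = 0.0212) and 0.51 (standard error 0.18, limma adjusted p = 0.0347). E2f1, a transcription factor that activates many replication genes, was at 10.44, 10.38 and 10.40 in Con_DMSO, 9.67, 10.40 and 9.35 in Con_ATG, 10.69, 10.45 and 10.97 in DM_DMSO and 10.24, 10.45 and 10.52 in DM_ATG. Con_ATG mice 1 and 3 stood well below every other mouse. Its difference was 0.30 (standard error 0.22, limma adjusted p = 0.361) with vehicle and 0.60 (standard error 0.22, limma adjusted p = 0.0448) with ATG.

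**Figure D2:**
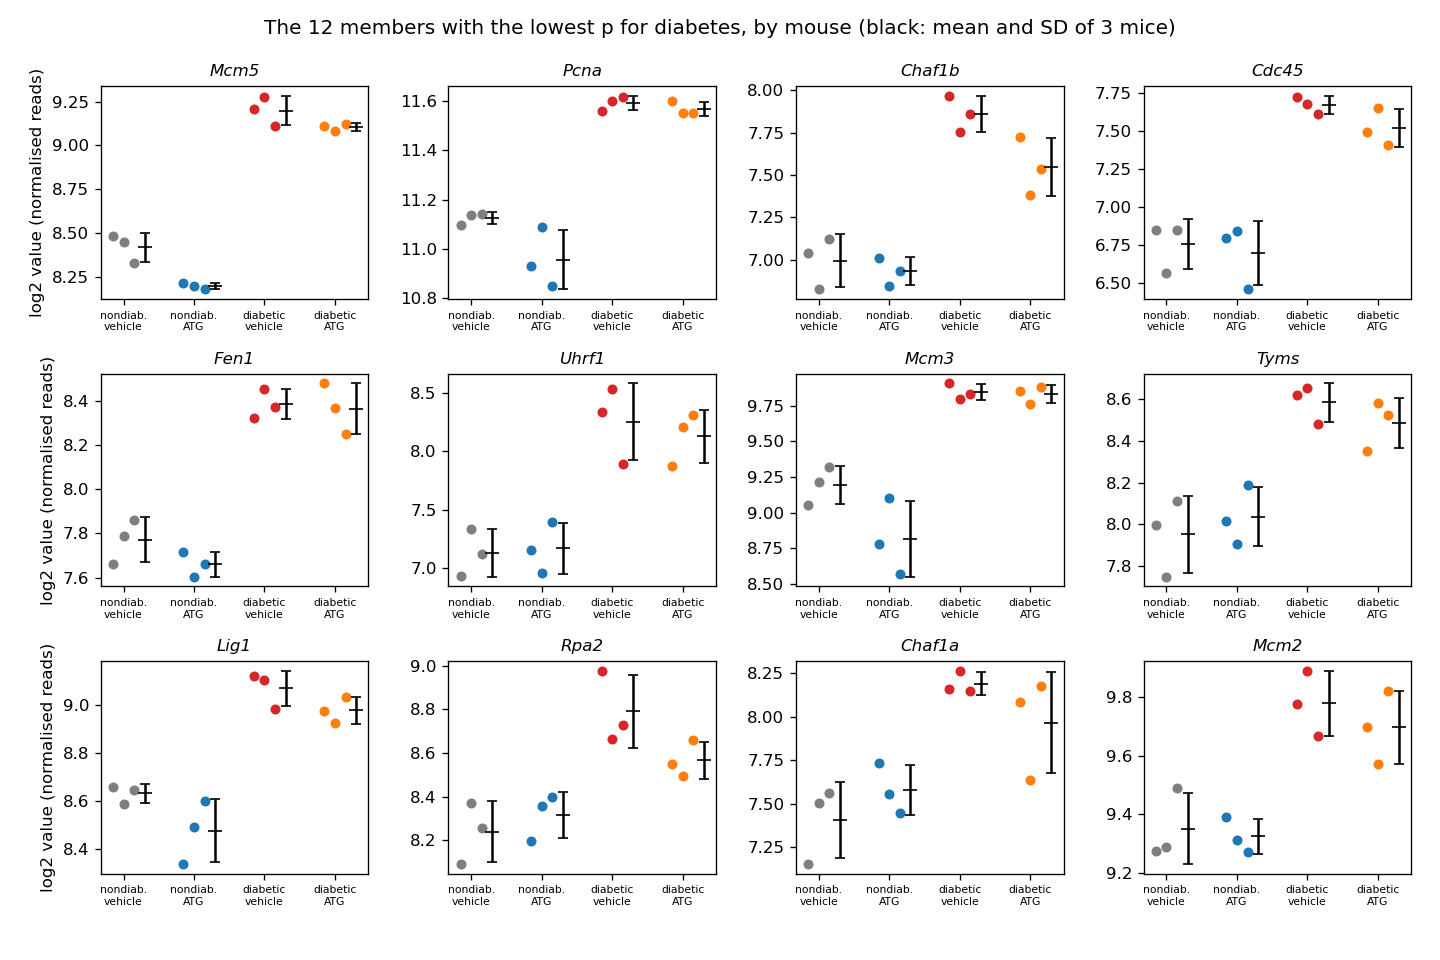
Log2 values (normalised reads, vertical axis, scaled separately in each panel) of the 12 members with the lowest p for diabetes in vehicle-treated mice, 1 point per mouse, with the mean and SD of 3 mice in black. In each of the 12 panels the 3 DM_DMSO mice lie above the 3 Con_DMSO mice, and DM_ATG overlaps Con_ATG only for Chaf1a.

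**Figure D3:**
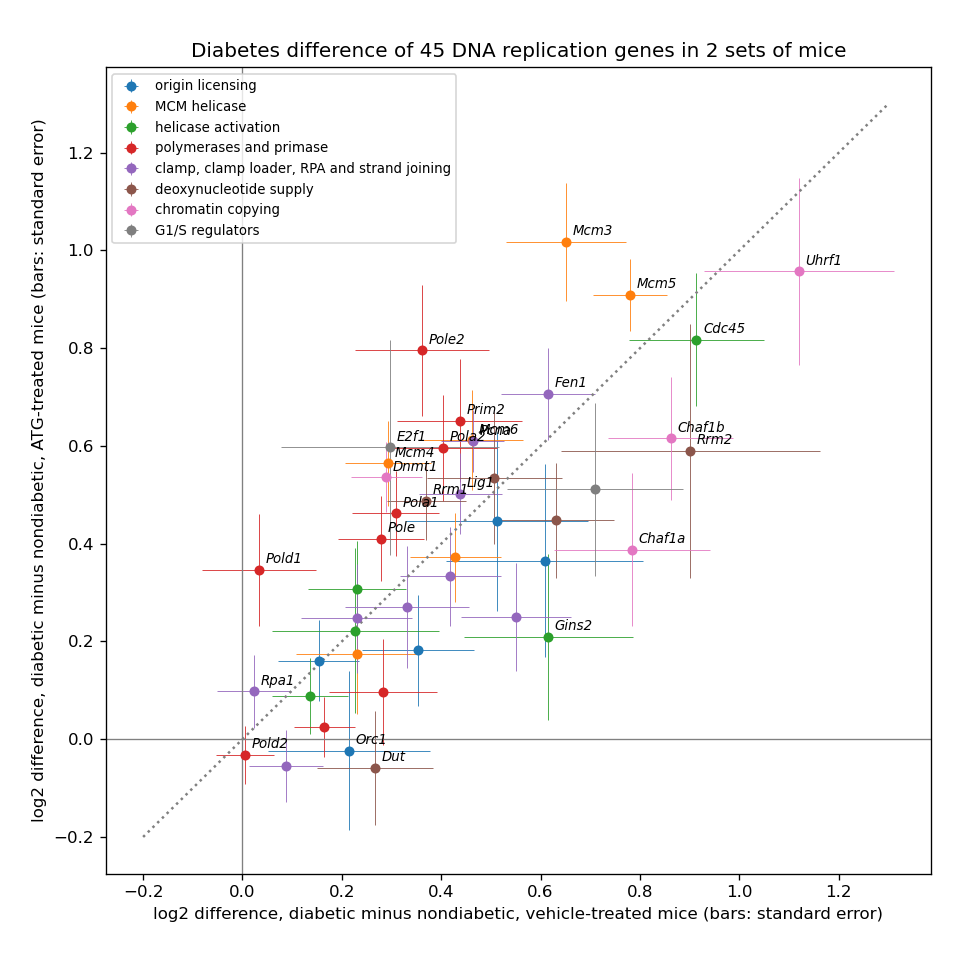
Each point is 1 of the 45 members, with its log2 difference for diabetes in vehicle-treated mice (horizontal) and in ATG-treated mice (vertical), standard errors as bars, roles as colours and equality as the dotted line. All points lie right of 0 and 41 above 0, from Pold2 near the origin to Uhrf1, Cdc45, Mcm5 and Mcm3, on the scale as deposited. Centring on glomerular markers would shift the vertical values until 5 of 45 were above 0.

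Divided by the transcript length that the deposited tables give, the members spanned 2 orders of magnitude in Con_DMSO mice. Pcna led with a mean of 1774 normalised reads per kb, ahead of Rpa1 with 635 and Rfc2 with 598, and Uhrf1 (39.5), Orc1 (29.0), Ccne2 (19.7) and Cdc6 (16.9) stood last. In DM_DMSO mice, the level of Pcna was 2445 and that of Uhrf1 86.8 normalised reads per kb. The spans of 17 members are overlapped by another RefSeq gene, among them Gins2, Tk1, Chaf1a, Ccne2, Pole2 and E2f1 by a protein-coding gene. Whether counting used strand is not given in the sources used here, so reads of such pairs cannot be told apart. The same holds for Pcna and its processed pseudogenes.

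For ATG in the diabetic mice, none of the 45 members passed. The median log2 difference between DM_ATG and DM_DMSO was −0.051, the range −0.31 to 0.15, and the median standard error 0.11. No gene of the whole list passed in limma either (background 0%), and with limma-voom on recovered reads 0 members passed. At an unadjusted p under 0.05 there was 1 member, Chaf1b, at −0.31 (standard error 0.13, limma adjusted p = 1.00), beside 4.51% of all genes. In 5 members, all 3 DM_ATG mice were below all 3 DM_DMSO mice, against 6.32% of all genes: Chaf1b, Rpa2 (−0.22, standard error 0.11, limma adjusted p = 1.00), Gins4 (−0.15, standard error 0.077, limma adjusted p = 1.00), Pold3 and Rrm1. The differences of Mcm5 (−0.093), Pcna (−0.023), Uhrf1 (−0.12) and Cdc45 (−0.15) were all within their standard errors of 0 or little beyond (0.074, 0.063, 0.19 and 0.14). The DM_DMSO mice enter both this comparison and that of diabetes with vehicle.

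In the nondiabetic mice, no member passed for ATG (limma, and likewise with limma-voom), where 0.709% of all genes were higher and 4.51% lower. At an unadjusted p under 0.05 there were 9 members, compared with 30.2% of all genes. All 9 had lower means in Con_ATG: Dnmt1 (−0.23, standard error 0.071, limma adjusted p = 0.0751), Mcm3 (−0.38, standard error 0.12, limma adjusted p = 0.0802), Mcm5 (−0.22, standard error 0.074, limma adjusted p = 0.0931), Pold1, Mcm4, Pola2, E2f1, Pcna and Pole2. In 9 members the Con_ATG mice were all below the Con_DMSO mice, which at 20% of the members equals the 20% of all genes. The members' median was −0.035, with 18 of 45 above 0, and it was 0.012 with median-ratio scaling. The summed level of the podocyte markers was 309647 to 733304 normalised reads in Con_ATG and 655957 to 722729 in Con_DMSO, that of the endothelial markers 93489 to 159348 and 182356 to 199543, and that of the mesangial and mural markers 28414 to 38302 and 54179 to 72633, where 0, 8 and 9 markers passed as lower. The summed tubule markers lay higher in Con_ATG, as given above, and none passed. Centred on these 3 glomerular lists, the members' median was 0.66 beside 0.65 for all genes, and 39 members passed as higher, as did 76.4% of all genes. The part of cell content in these values was not tested. Without Con_ATG mouse 2, 7 members passed as lower (Mcm3, Mcm4, Pcna, Pola2, Pold1, Rrm1 and E2f1), as did 17.5% of all genes.

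The difference between both ATG effects, which is also the difference between both diabetes comparisons, passed for no member in limma or limma-voom, against 0.546% of all genes. At an unadjusted p under 0.05 there were 3 members, beside 12.9% of all genes, and their diabetes difference was larger with ATG: Dnmt1 (0.25, standard error 0.10, limma adjusted p = 0.342), Pole2 (0.43, standard error 0.19, limma adjusted p = 0.371) and Mcm4 (0.27, standard error 0.12, limma adjusted p = 0.387). The lowest value was that of Gins2, −0.41 (standard error 0.24, limma adjusted p = 0.485).

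Other replication genes were taken as lists for context, and their counts stand beside 10.2% of all genes higher and 8.63% lower with vehicle, and 25.9% and 20.8% with ATG. Of 36 listed accessory factors, 10 were higher and none lower in vehicle-treated diabetic mice (median 0.20), among them Top2a, which untangles copied DNA (1.43, standard error 0.20, limma adjusted p = 0.00269), the checkpoint mediators Topbp1 (0.55, standard error 0.081, limma adjusted p = 0.00359) and Clspn (0.87, standard error 0.14, limma adjusted p = 0.00467), and the histone chaperone Asf1b (0.97, standard error 0.19, limma adjusted p = 0.00949). In ATG-treated mice 14 were higher and 2 lower. The 24 further enzymes of nucleotide synthesis had 3 higher and 3 lower in vehicle-treated mice, near the shares of all genes, and a median of −0.023, and 5 higher and 8 lower in ATG-treated mice, with a median of −0.085. Dck, the deoxycytidine kinase (0.54, standard error 0.12, limma adjusted p = 0.0160), and Impdh1 (0.68, standard error 0.13, limma adjusted p = 0.00753), of guanine nucleotide synthesis, were higher. Mthfd1, which supplies one-carbon units, was lower (−0.82, standard error 0.22, limma adjusted p = 0.0262), in the same direction as the tubule markers.

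Against the same shares of all genes (10.2% higher and 8.63% lower with vehicle), 26 further genes of S phase entry were counted. Of these 26 E2F, RB and G1 cyclin genes, 8 were higher and 2 lower with vehicle. The cyclin A2 gene Ccna2 (1.71, standard error 0.29, limma adjusted p = 0.00578) and the E2F genes E2f7 (0.85, standard error 0.14, limma adjusted p = 0.00564) and E2f2 (0.81, standard error 0.14, limma adjusted p = 0.00601) were higher, and Rbl2, the RB relative p130 of resting cells, was lower (−0.43, standard error 0.066, limma adjusted p = 0.00414). Of 6 listed inhibitors of cyclin-dependent kinases, Cdkn1a (p21) and Cdkn2c (p18) were higher and none was lower. Cdkn1a was at 10.82, 11.16 and 11.70 in Con_DMSO, 10.91, 11.00 and 10.32 in Con_ATG, 12.64, 13.44 and 12.82 in DM_DMSO and 13.05, 12.72 and 12.80 in DM_ATG. Its diabetic mice were all at least 0.94 log2 units above all nondiabetic mice, by 1.74 (standard error 0.26, limma adjusted p = 0.00375) and 2.11 (standard error 0.26, limma adjusted p = 0.000288). The other inhibitors did not pass with vehicle, at 0.62 for Cdkn1c, −0.25 for Cdkn1b, 0.21 for Cdkn2b and 0.023 for Cdkn2d. Of 24 genes of fork checkpoint and repair, 4 were higher, not far from the 10.2% of all genes, and none lower, among them Brca1 (0.57, standard error 0.15, limma adjusted p = 0.0262) and Chek1 (0.77, standard error 0.23, limma adjusted p = 0.0389). Of 29 mitosis genes, 26 were higher and none lower (median 0.93, beside 0.37 for the replication genes), and of 24 p53 targets 14 were higher and none lower (median 0.51).

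**Figure D4:**
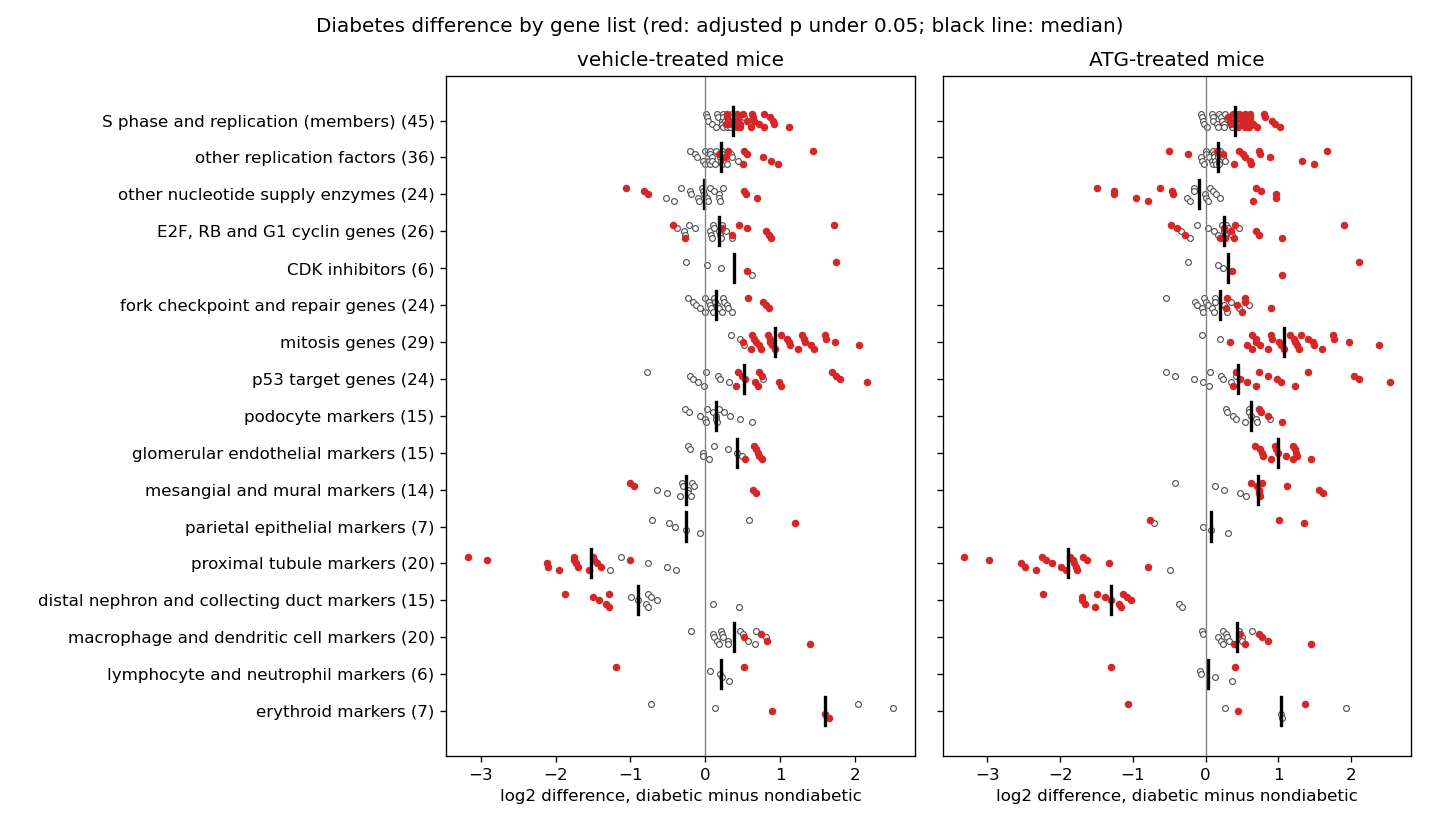
Log2 differences for diabetes (horizontal axis) of every listed gene of each list in vehicle-treated (left) and ATG-treated mice (right), with the number listed in brackets, genes that passed in limma in red and the median as a black line, on the scale as deposited. The median of the replication genes lies right of 0, between those of the mitosis genes (0.93 and 1.08) and of the other replication factors (0.20 and 0.18), and that of tubule markers left of 0. In the right panel the medians of the podocyte (0.62), glomerular endothelial (1.00), and mesangial and mural markers (0.72) lie right of the members' 0.41. In the left panel they are 0.15, 0.42 and −0.27 beside 0.37. Centring on glomerular markers would shift the right panel by −0.78.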

How the data were processed

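Poly(A) mRNA of glomeruli from 12 mice was sequenced. The authors deposited log2 values per gene and mouse, which are reads multiplied by 1 factor per library: on the linear scale, each library had a step of 1.00 to 1.27 that stands for 1 read, and 83.5% to 84.0% of the values below 2000 reads came out whole (tolerance 0.02), and the sums were 29.7 to 30.2 M. The labels' processing notes name mm10 and limma, and the aligner and counter are not given in the sources used here. The labels also describe sorting of dissociated cells, which the methods of the study do not mention, and the samples are treated as whole glomeruli. Samples were grouped by the label description. Limma 3.58.1 (R 4.3.3) was fitted with a mean-variance trend to all 12 mice in 4 groups, two-sided, with Benjamini-Hochberg adjustment over 14096 genes, and was tested on simulated data with 200 changed genes. Exact permutation of 3 against 3 mice cannot go below p = 0.1, so none is given.

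Members and lists were chosen with earlier results of these data known. Per-mouse values are given for the 12 members with the lowest p for diabetes in vehicle-treated mice, those called in another comparison and the 3 with the lowest p in each. Members outside this rule are given by difference or range, or only by overlap or by whether they passed. From each other list, 4 genes (lowest p in the vehicle comparison) and all CDK inhibitors could be named. Some genes that this rule names are not reported here. Promoters come from the 3 members with the lowest and the 3 with the highest p. Alternatives were a minimum of 10 reads, only the compared groups, a replicate block, each mouse or both unnumbered mice left out, no trend, median-ratio scaling, limma-voom on recovered reads, tubule and macrophage covariates, glomerular marker centring and thresholds of 0.01 and 0.1. Figures were drawn with matplotlib 3.10.9 (Python 3.11.15).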

Additional observations from a re-analysis of the deposited data

How the results depend on the processing

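For diabetes in vehicle-treated mice, 25 members passed, and (with the share of all genes passing as higher in brackets, 10.2% in the reported fit) 14 with the replicate block (5.52%), 9 with the tubule covariate (2.44%), 13 with the macrophage covariate (3.99%), 1 with glomerular marker centring (1.36%), 9 at an adjusted p under 0.01 (2.59%) and 12 to 27 with a mouse left out (3.37% to 12.9%). For diabetes in ATG-treated mice, 25 passed (25.9%), and 1 with the tubule covariate (0.837%), 15 as lower with glomerular marker centring (76.3% of all genes lower) and 20 to 25 with a mouse left out (19.2% to 29.6%). For ATG in nondiabetic mice, 0 passed, and 39 as higher with glomerular marker centring (76.4%), 4 as lower at an adjusted p under 0.1 (11.3% of all genes lower) and 0 to 7 as lower with a mouse left out (0.426% to 17.5%). For ATG in diabetic mice, and for its difference from ATG in nondiabetic mice, 0 passed under each alternative that gave a value, and the latter cannot be had from the compared groups alone. For Pold1 the vehicle difference turned to −0.045 with the replicate block, −0.19 with the tubule covariate, −0.025 with the macrophage covariate, −0.034 with glomerular marker centring, −0.017 without both unnumbered mice and to −0.017, −0.017 and −0.016 without Con_DMSO mouse 1, Con_DMSO mouse 3 and DM_DMSO mouse 2, within a range of −0.017 to 0.13 over all mice left out. For E2f1 it turned to −0.29 with the tubule covariate. Covariates and the block leave fewer degrees of freedom. The mean tubule marker value (log2) was 10.4 to 11.7 in the diabetic and 12.2 to 13.4 in the nondiabetic mice. The tubule covariate thus separates the groups that are compared, and the members' median standard error rose with it, as given above. Beyond that, the cause was not tested. Mice with the same number in different groups are different animals. Their deviations from the group means had a Pearson's r across genes between −0.59 and 0.34. Between DM_DMSO and DM_ATG the r was 0.31, 0.054 and 0.34 for mice 1, 2 and 3. Mice of unlike number were not compared, so shared handling by number was not tested. Of the vehicle diabetes differences of single named members under all alternatives, 526 kept their side of the threshold, 134 lost it, 3 gained it and 9 changed sign. With 3 mice in a group, the spread between mice limits most members, and for Ccne2, with 45 to 104 reads, counting error adds to it.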
